A study of Mus musculus with 8 samples.

Results

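Mesothelial genes are described here as 8 genes that mark the mesothelium: Msln, Upk3b, Upk1b, Wt1, Lrrn4, Gpm6a, Muc16 and Bnc1. They were chosen by name as markers of that tissue and were found on the arrays through the transcript accession of each probe. Of the 8 genes, 7 had a probe, with 8 probes in all because Upk1b had 2. Muc16 had no matched probe and was not analysed here. Of these 7 genes, 2 (Msln and Wt1) passed the filter on dim probes, out of 29584 genes or unnamed features that were tested.

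The samples were adipose-derived mesenchymal stem cells, the plastic-adherent cells grown from subcutaneous belly fat of male C57BL/6 mice. The mice were 6 weeks old when feeding began, and the cells were passaged before use so that they looked uniform. Chow was fed for 12 weeks (C12) or 24 weeks (C24), and a diet with 60% fat for 12 weeks (HF12) or 24 weeks (HF24). The sample titles call the 12-week groups young and the 24-week groups old, so mouse age and feeding time cannot be told apart. Each of these 4 groups had 2 one-colour Agilent mouse arrays, hybridised with Cy3-labelled RNA. Whether the 2 arrays of each group came from different mice or cultures is not given in the labels. All p-values therefore reflect array-to-array spread alone, and part or all of that spread may be technical.

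The mesothelium is the sheet of flat cells that lines the body cavities and covers the organs in them, and it also covers visceral fat depots. Subcutaneous fat lies outside these cavities. Mesothelial cells have features of epithelium, such as keratins and a glycoprotein coat, yet arise from mesoderm, and can take on a mesenchymal form in culture.

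All arrays lay on 1 slide. The 12-week arrays filled slide row 1 and the 24-week arrays row 2, so slide row and feeding time cannot be told apart. Chow arrays filled columns 1 and 2 and high-fat arrays columns 3 and 4, which leaves slide column confounded with diet in the same way. The share of probes well above background was 65.1 to 67.2% after 12 weeks of feeding and lower, 57.6 to 62.4%, after 24 weeks. All 11 of the tested stromal and fibroblast markers, of 12 listed, were well above background on all 8 arrays. In contrast, 5 of the 7 mesothelial genes with a probe (6 of their 8 probes) were above it on none. Over the whole series, 15289 of 56413 probes were above it on none. A level below is the log2 processed intensity of a probe minus the 75th percentile of its array, so that 0 is the brightness of that percentile.

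Promoter sequence was looked at for the members that have an entry in the RefSeq promoter table (GRCm38.p6, from 250 bases before to 50 after each start): Lrrn4, Upk3b, Bnc1, Muc16 and Gpm6a, which has 2 starts. The short motifs given here were searched on both strands in these 6 promoters. GGAATG, the core bound by TEAD factors, lay in 3 of the 6 and in 14.7% of 32851 promoters. The E-box CACCTG lay in 1 of the 6 and in 20.2% of all. The WT1 motif GCGTGGGNG lay in 0 of the 6 and in 1.9% of all, and TATAAA in 1 of the 6 and in 13.6% of all. No matches in these promoters overlapped one another. A match is a description of the letters and not a binding site. The windows around the GGAATG matches are shown with the motif in capitals on the strand of the gene (CATTCC is the same motif on the other strand). They belong to members whose probes were not detected. Msln, Wt1 and Upk1b have no entry among these RefSeq promoters, so the detected members could not be searched. Lrrn4 lies at chr2:132881038-132881073 on the minus strand, Upk3b at chr5:136038246-136038275 on the plus strand and Gpm6a at chr8:54779294-54779329 on the plus strand.
Lrrn4: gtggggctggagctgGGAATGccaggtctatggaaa
Upk3b: aggaacggaCATTCCgagctggggaagaca
Gpm6a: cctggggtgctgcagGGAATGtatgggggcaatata

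Msln and Wt1 were detected in every group, and both were lowest after 24 weeks of high-fat diet. Msln fell 4.59-fold and Wt1 2.02-fold between C24 and HF24. At 12 weeks Msln was 1.44-fold higher on high-fat diet than on chow, and neither gene passed the test between C24 and C12. In these bulk samples, fewer cells of a type and less RNA per cell cannot be told apart.

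Msln encodes mesothelin, a glycoprotein anchored on the cell surface. Its level was −1.51 and −1.58 in C12, −1.05 and −0.99 in HF12, −1.51 and −1.56 in C24, and −3.66 and −3.82 in HF24. Both HF24 arrays lay below the other 6 arrays and both HF12 arrays above them, while the C12 and C24 arrays overlapped. The probe was well above background on all 8 arrays, and its processed intensity was 309 to 495 in the first 3 groups and 72.2 and 63.8 in HF24. Even in HF24 it stayed 1.09 and 1.11 log2 units above the lowest level among probes detected on the same array.

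Wt1 encodes a zinc-finger transcription factor of the mesothelium, kidney and gonad. Its level was −2.97 and −3.15 in C12, −3.19 and −3.14 in HF12, −3.16 and −3.10 in C24, and −3.82 and −4.48 in HF24. The HF24 arrays lay below the other 6, which overlapped across their 3 groups. The HF24 arrays were also the farthest from each other, with a mean of −4.15 ± 0.46 (SD, n = 2) against −3.13 ± 0.04 (SD, n = 2) in C24. The probe was well above background on all 8 arrays, but in HF24 by only 0.93 and 0.45 log2 units over the lowest detected level.

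**Figure D1:**
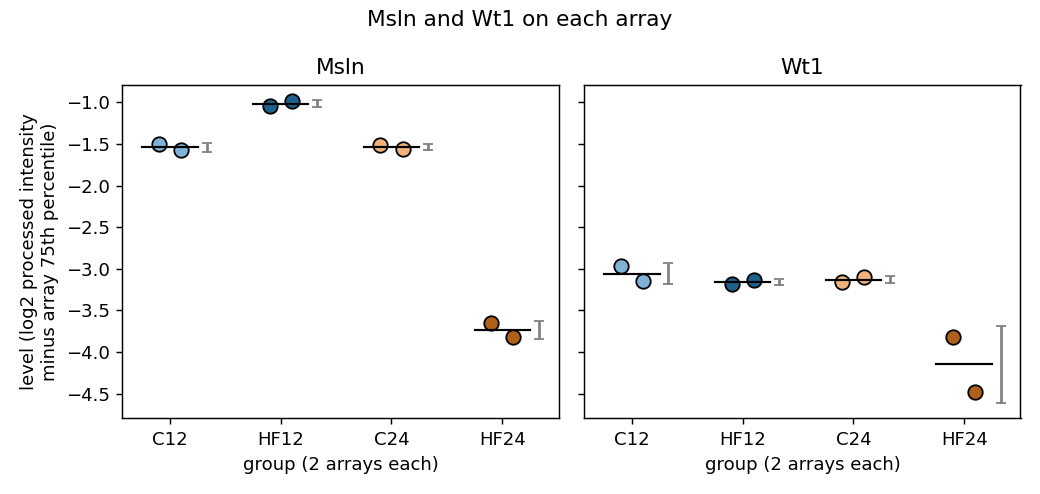
Level of Msln (left) and Wt1 (right) on each array, as log2 processed intensity minus the array's 75th percentile, by group. Points are arrays, black lines group means and grey bars 1 SD (n = 2). Both genes are lowest on the HF24 arrays, Msln at −3.66 and −3.82 and Wt1 at −3.82 and −4.48.

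The diet comparison at 24 weeks asked how the cells differed after long feeding. In limma's moderated test across all genes, with Benjamini-Hochberg adjustment, Msln changed by −2.20 ± 0.07 (log2, SE; adjusted p = 5.6e-05) and Wt1 by −1.02 ± 0.21 (adjusted p = 0.0128). Both tested members were called lower, where 34.1% of all genes tested were called, 15.1% higher and 19.0% lower. A larger fall than that of Msln was found in 183 of the 29584 genes (0.619%), and a larger fall than that of Wt1 in 1831 (6.19%). With normexp background correction of the median intensity and quantile normalization, the changes were −1.33 for Msln and −0.38 for Wt1. Quantile normalization alone gave −2.06 and −0.87. Normexp here adds an offset of 50, which compresses dim probes, but the part of the offset in the smaller changes was not tested. The Wt1 call was lost when only these 2 groups were fitted (adjusted p = 0.0655), without C24 replicate 1 (0.0501) and without C24 replicate 2 (0.0536).

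At 12 weeks, Msln was higher on high-fat diet by 0.52 ± 0.07 (log2, SE; limma adjusted p = 0.00378). Wt1 changed by −0.10 ± 0.21 (adjusted p = 0.748). This is 1 called member of 2, where 31.0% of genes were called, 13.6% higher and 17.4% lower.

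Between 12 and 24 weeks on chow, limma called 0 of the 2 tested members, and 0 had an unadjusted p under 0.05, where 46.1% of genes were called, 23.9% higher and 22.2% lower. The change was 0.01 ± 0.07 for Msln (adjusted p = 0.957) and −0.07 ± 0.21 for Wt1 (adjusted p = 0.798). On high-fat diet both members fell between 12 and 24 weeks, where 46.8% of genes were called, 22.5% higher and 24.4% lower. Msln fell by 2.72 (log2, SE 0.07; limma adjusted p = 9.62e-06) and Wt1 by 0.99 (SE 0.21; adjusted p = 0.0105). Under normexp these values were −1.75 and −0.43, and without HF12 replicate 2 the Wt1 call was lost (adjusted p = 0.0543).

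The diet effect on Msln differed between feeding times by −2.72 ± 0.11 (log2, SE; limma adjusted p = 5.37e-05 for the interaction), and by −1.71 under normexp. For Wt1 the interaction was −0.92 ± 0.29 and did not pass (adjusted p = 0.0620). Under normexp it was −0.32 (adjusted p = 0.0974), and in 12 of 15 alternatives it did not pass, with adjusted p up to 0.154. It passed among genes detected on all arrays (adjusted p = 0.0342). It also passed without HF24 replicate 1, at −1.24 (adjusted p = 0.00375), and without replicate 2, at −0.59 (adjusted p = 0.0330). In those fits HF24 has 1 array, which is assumed to vary like the other groups, and the SE drops from 0.29 to 0.14 because the wide spread of HF24 is left out. Msln was thus 1 called member of 2, where 29.9% of genes were called for the interaction, 13.9% higher and 16.0% lower. The comparisons share arrays, so they are not independent of each other.

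**Figure D2:**
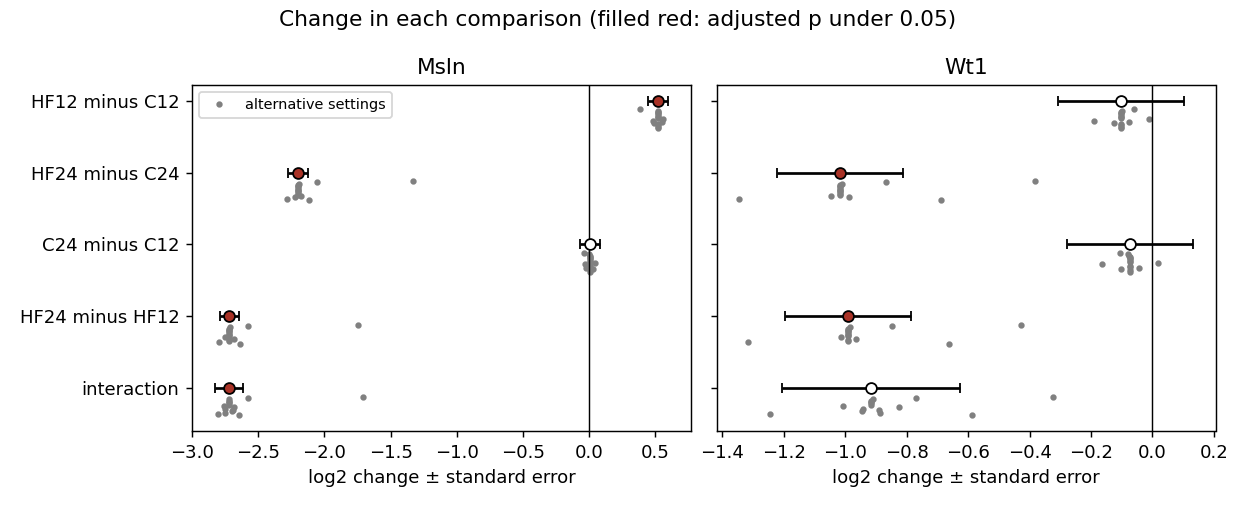
Log2 change of Msln and Wt1 in each comparison, with the standard error from limma as bars and the value under each alternative setting as small grey points. Msln changes by −2.20 at 24 weeks and 0.52 at 12 weeks, and the bars of Wt1 are wider than those of Msln throughout.

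The other 5 genes with a probe were not well above background on any array. They include Upk3b and Upk1b, which encode uroplakins of the urothelium and mesothelium, and Lrrn4, a leucine-rich repeat membrane protein. Gpm6a encodes a membrane glycoprotein, and Bnc1 the zinc-finger protein basonuclin 1. Over 6 probes and 8 arrays, their 48 levels ran from −8.05 to −5.83, and their processed intensities from 3.86 to 16.9. Each lay between 0.43 and 2.25 log2 units below the lowest level of a detected probe on its array. Below background a probe gives only an upper limit, so RNA under that limit was not detectable here.

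A weaker deposited flag, for a signal that is positive and significant against background, was set for 10 of these 48 values. Gpm6a carried it on 6 arrays, both of C12, HF12 and C24, and on neither HF24 array. Its level was −6.66 and −6.22 in C12, −7.32 and −7.44 in HF12, −6.13 and −5.83 in C24, and −6.85 and −7.01 in HF24. One Upk1b probe carried the flag on the other 4, C12 replicate 2, both HF12 arrays and C24 replicate 2. Upk3b, Lrrn4, Bnc1 and the other Upk1b probe never did.

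Differences among undetected probes moved with the floor of the arrays. For 15289 probes never well above background, the median log2 difference was 0.54 for C24 minus C12 and 0.84 for HF24 minus HF12. Without the filter on dim probes, Upk3b, Lrrn4 and Bnc1 gave 0.56, 0.55 and 0.56 in the first of these comparisons (limma adjusted p = 0.0224 each). In the second they gave 0.86, 0.84 and 0.87 (adjusted p = 0.0042 each). These values lie close to the floor's own difference. Gpm6a, also below background, gave −0.94 (adjusted p = 0.0240) for HF12 minus C12 and −0.95 (adjusted p = 0.0219) for HF24 minus C24 in that fit, where the floor differed by −0.09 and 0.22. One Upk1b probe gave 1.03 for HF12 minus C12 (adjusted p = 0.0414). The other Upk1b probe had means of −7.67 in C12 and −7.74 in HF12, and both probes were below background.

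**Figure D3:**
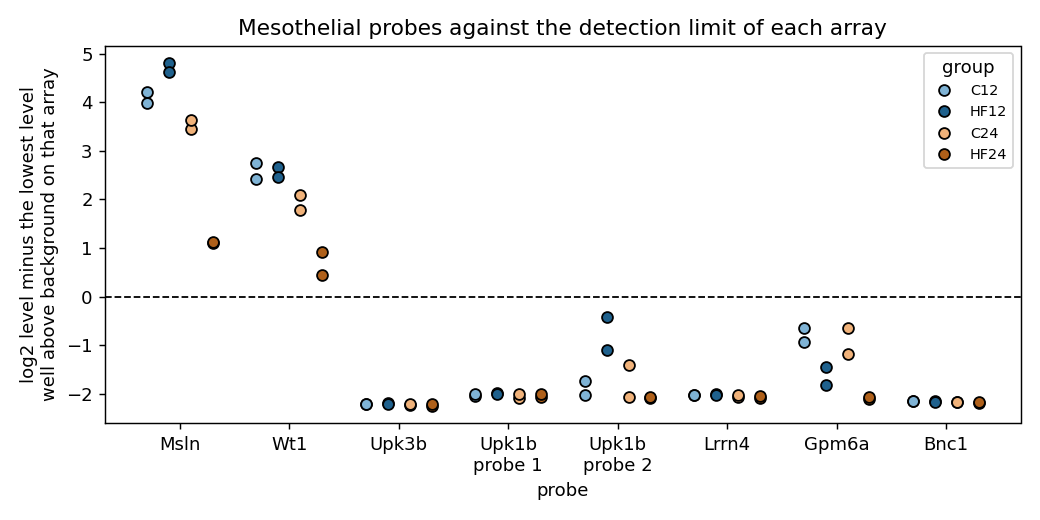
Distance of each member's probe from the lowest level among detected probes of the same array (log2 units), for the 8 arrays. Msln and Wt1 lie above 0 on every array, and the 6 probes of the other 5 genes lie between −2.25 and −0.43.

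Paralogues were set beside the undetected members, since a related gene can be expressed where the marker is not. Bnc2 was detected on 8 of 8 arrays where Bnc1 was on 0. Gpm6b was detected on 8 where Gpm6a was on 0, and Lrrn1, Lrrn2 and Lrrn3 on 8 where Lrrn4 was on 0. Upk1a and Upk3bl were detected on 8, and Upk3a on 0. Of 12 paralogues 9 were tested. Between C24 and HF24 limma called 0 higher and 4 lower, where 34.1% of all genes were called, 19.0% lower. The paralogues had a median log2 change of −0.28 against 0.02 over all genes. Lrrn1, a leucine-rich repeat neuronal protein, changed by −2.24 ± 0.09 in that comparison (log2, SE; limma adjusted p = 7.47e-05), and by −1.38 under normexp. Lrrn3 changed by −0.85 ± 0.10 (adjusted p = 0.00176), and by −0.51 under normexp. At 12 weeks 2 paralogues were higher and 3 lower, where 31.0% of all genes were called.

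A wider list of 30 other genes that mesothelial cells express was compared, few of which are exclusive to them. Of these, 24 were tested. Calb2 (calretinin), Pkhd1l1, Crb2, Gata4, Tcf21 and Cdh1 did not pass the filter. Between C24 and HF24, 2 of the 24 rose and 15 fell, where 15.1% of all genes were called higher and 19.0% lower. The 24 had a median log2 change of −0.37 against 0.02 over all genes. Between C12 and HF12, 6 rose and 12 were called lower, where 13.6% of all genes were called higher and 17.4% lower. The median was −0.29 against −0.03. The 12 include Dsp, which was below background in both of those groups.

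Efemp1, an extracellular matrix fibulin, fell by 2.43 between C24 and HF24 (log2, SE 0.09; limma adjusted p = 6.14e-05). Hp, the haemoglobin-binding protein haptoglobin, fell by 1.65 (SE 0.06; adjusted p = 6.2e-05). Dsp, the desmosomal plaque protein desmoplakin, was detected only on the C24 arrays and was at least 2.71-fold lower in HF24, a bound set by the lowest detected level (adjusted p = 6.81e-05). At 12 weeks, Cd200, a membrane glycoprotein that restrains myeloid cells, rose by 2.04 (SE 0.05; adjusted p = 3.35e-06). Aldh1a2, which makes retinoic acid, rose by 1.76 (SE 0.06; adjusted p = 1.07e-05), and C3, a complement component, fell by 2.18 (SE 0.07; adjusted p = 6.08e-06). The interaction of Aldh1a2 was −2.29 ± 0.09 (adjusted p = 5.29e-05).

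Between C12 and C24, 14 of the 24 were higher and 8 lower, where 46.1% of all genes were called. The median was 0.53 against 0.02. Slpi, a secreted protease inhibitor, rose by 2.24, while Hp fell by 2.65 and C3 by 2.23 (limma adjusted p = 1.04e-05, 3.73e-06 and 8.53e-06). A second Slpi probe, also detected on all arrays, had means of −2.47 in C12 and −2.28 in C24, and the mean of both probes rose by 1.21. Between HF12 and HF24, 10 were called higher and 10 lower, where 46.8% of all genes were called. The median was −0.03 against −0.01. The 10 higher include Dsp, below background in both groups. Aldh1a1, a retinal dehydrogenase, changed by −2.17 and Efemp1 by −2.50 (adjusted p = 1.29e-05 and 1.72e-05).

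The simple-epithelial keratins were looked at after their values were seen. Krt18 had group means of −3.83 in C12, −3.49 in HF12, −2.20 in C24 and −3.63 in HF24. It was highest in C24, by 1.63 over C12 (limma adjusted p = 0.000194), and HF24 was lower than C24 by a log2 change of −1.43 (adjusted p = 0.00057). Under normexp this change was −0.84. Krt8 was at least 3.07-fold lower in HF24 than in C24 (adjusted p = 0.000617). Krt7 was at least 3.60-fold higher in C24 than in C12 (adjusted p = 0.000438), but its means in C24 and HF24 were −3.80 and −3.83 (adjusted p = 0.932). Krt19 had means of −1.39 in C12, −0.96 in HF12, 0.10 in C24 and −0.14 in HF24, and its change of −0.24 between C24 and HF24 had an adjusted p of 0.0478, a call kept in 5 of 16 alternatives. The mean of the keratinocyte markers was also highest in C24, as given below.

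**Figure D4:**
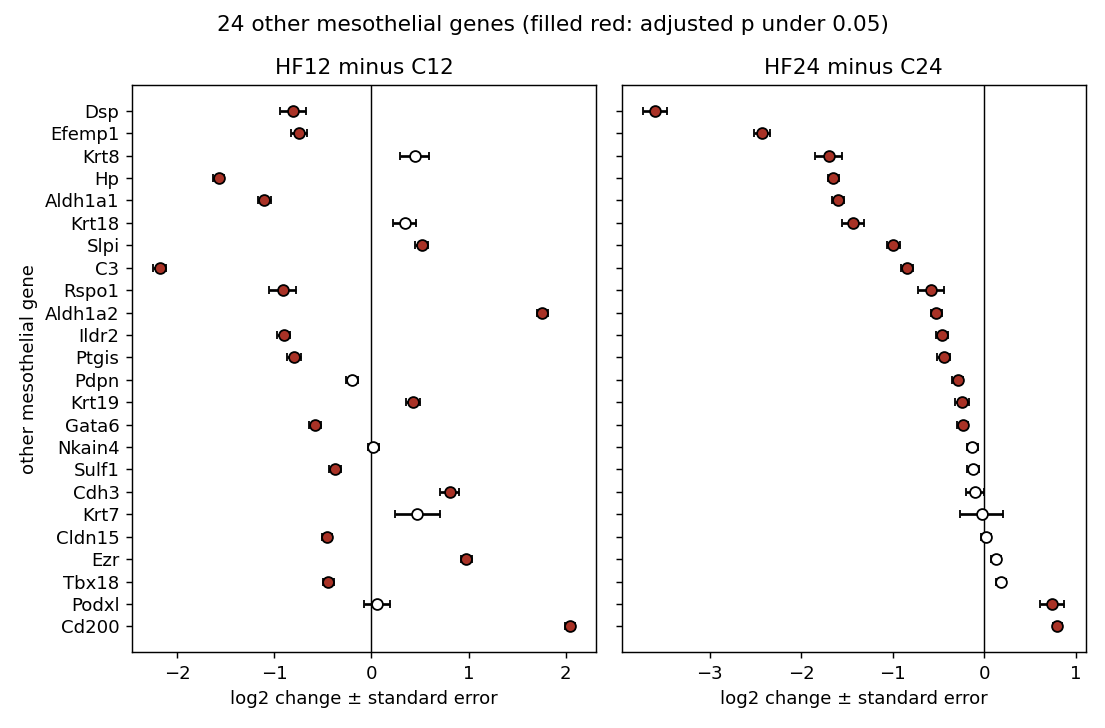
Log2 change of the 24 tested genes of the wider mesothelial list on high-fat diet at 12 weeks (left) and 24 weeks (right), with standard errors, ordered by the 24-week change. Filled points passed limma's test at an adjusted p of 0.05; at 24 weeks 15 are lower and 2 higher. The Dsp point at 12 weeks rests on values below background.

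Genes of the change from mesothelial to mesenchymal form were all detected on every array (13 of 13). Between C24 and HF24, 2 rose and 1 fell, where 34.1% of all genes were called. The median was 0.07 against 0.02 over all genes. Tagln, an actin-binding protein of contractile cells, rose by 0.44 ± 0.06 and Acta2, smooth muscle actin, by 0.56 ± 0.09 (log2, SE; limma adjusted p = 0.0023 and 0.00459). Acta2 rose by 0.37 when its probes were averaged. Between C12 and HF12, 4 rose and 2 fell, where 31.0% of all genes were called. Between C12 and C24, 7 rose and 1 fell, with a median of 0.35 against 0.02, where 46.1% of all genes were called. Between HF12 and HF24, 8 rose and 0 fell, with a median of 0.28 against −0.01, where 46.8% of all genes were called. For the interaction limma called 0 of the 13, where 29.9% of all genes were called. Of the 13, 2 had an unadjusted p under 0.05.

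Markers of other cell types that the plated cells could hold also differed between the groups, some in the direction of Msln and Wt1 and some against it. The Schwann cell and glial markers had a mean level of −1.40 to −1.03 on the arrays of C12, HF12 and C24 and of −2.41 and −2.40 on those of HF24. All 7 tested of 8 were called lower in HF24 than in C24, where 34.1% of all genes were called, 19.0% lower. Keratinocyte markers were at −2.31 to −1.96 on the 12-week arrays, at −0.01 and 0.06 in C24 and at −1.60 on both HF24 arrays. Of 6 tested, 3 were called higher and 1 lower in C24 than in C12, where 46.1% of all genes were called. In HF24, 3 were called lower than in C24. These 3 were Krt5, Krt14 and Perp, with Krt5, a basal keratin, changing by 5.09 and then by −3.52. Trp63, Dsc3 and Col17a1 were not called between C24 and HF24, by the brightest probe of each gene. A dimmer Col17a1 probe was detected only on the C24 arrays, with means of −3.89 in C24 and −6.77 in HF24. A dimmer Trp63 probe was detected on both arrays of C12, HF12 and C24 and on neither HF24 array. Its means were −3.93 in C12, −4.22 in HF12, −4.43 in C24 and −6.00 in HF24, so it was not highest in C24.

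Macrophage markers were at 0.01 and 0.02 in C12, 3.95 and 3.97 in HF12, 1.95 and 1.97 in C24, and 3.58 on both HF24 arrays. The 12 tested were all called higher in HF12 than in C12, where 13.6% of all genes were called higher. In HF24, 11 were called higher than in C24, where 15.1% of all genes were called higher. This was against the direction of Msln and Wt1 at 24 weeks. Mature adipocyte markers were at 4.33 and 4.37 in C12, 1.64 and 1.65 in HF12, −1.38 and −1.34 in C24, and −2.47 and −2.45 in HF24. Endothelial markers were at 0.27 and 0.34 in C12, 0.13 and 0.17 in HF12, 0.94 and 1.01 in C24, and 1.43 and 1.45 in HF24. Of 8 tested, 6 were called higher and 0 lower in HF24 than in C24. The mean of the stromal markers ranged from 4.66 to 5.16 over all arrays, but single genes of the list moved. Of 11 tested, 1 was called higher and 3 lower in HF24 than in C24, where 34.1% of all genes were called, 19.0% lower. Between C12 and HF12, 1 was called higher and 4 lower, where 31.0% of all genes were called, 17.4% lower. Dpt changed by −1.16 at 12 weeks and by −1.23 at 24 weeks, and Nt5e by −3.30 at 12 weeks. The part of these cell types in the results for Msln, Wt1 and the wider list was not tested.

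The genes whose level followed Msln most closely over the 8 arrays, by root mean square difference after centring each gene, were Mymx (0.188 log2 units), Shisal1 (0.202) and Fbn2 (0.217). Mymx encodes a small peptide that fuses myoblasts, and Fbn2 the microfibril protein fibrillin 2. Group means of Mymx were 1.89 in C12, 2.66 in HF12, 1.93 in C24 and 0.16 in HF24. Because of Mymx, skeletal muscle and myoblast markers were added after the values were seen. The mean level of 13 of them, Mymx included, was 2.40 to 2.48 in C12, 2.19 and 2.23 in HF12, 1.28 and 1.32 in C24, and −0.14 and −0.13 in HF24. This mean was lowest in HF24, but its genes did not all follow it. Actc1, a sarcomeric actin, was highest in HF24, at 5.34 against 4.51 in C12. Pax7 was well above background only on the C12 arrays, with a mean of −3.99 there, and below background in the other groups.

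The genes nearest to Wt1 were Serpinb1c (0.168 log2 units), Tcf24 (0.169) and Acnat1 (0.174). All 3 were detected on all 8 arrays and lowest in HF24, with means of −1.66, −3.55 and −2.79 there against −0.51, −2.52 and −1.95 in C24.

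**Figure D5:**
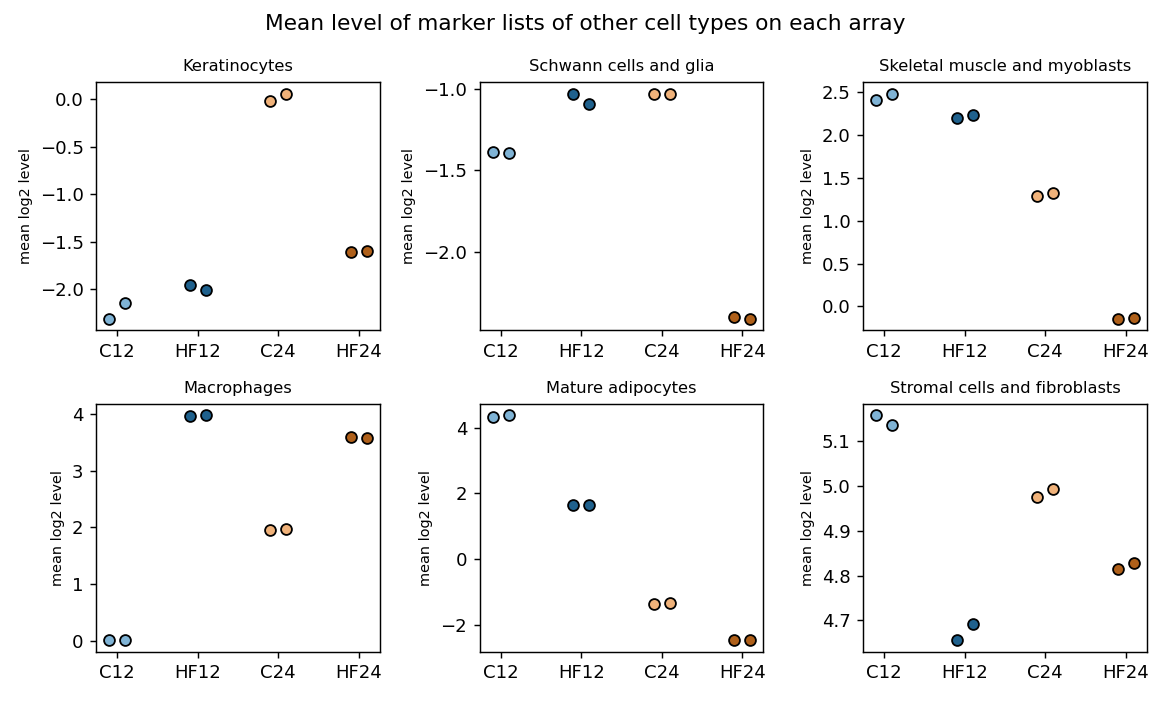
Mean level of 6 marker lists of other cell types on each array (log2 processed intensity minus the array's 75th percentile); the vertical scales differ. The means of Schwann, muscle and mature adipocyte markers are lowest in HF24, reaching −2.41, −0.14 and −2.47. That of keratinocyte markers is highest in C24, at −0.01 and 0.06.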

How the data were processed

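Per the file headers, Agilent Feature Extraction 11.0.1.1 made the deposited processed intensity of each spot, which is background-subtracted. It is not normalized between arrays. The authors also deposited a table of log2 values for 38475 probes, each column of which is log2 processed intensity plus a constant per array. Its medians ran from −1.44 to −1.33, its direction and scale follow the intensities, and the rule behind the constant is not given in the sources used here. The deposited flags for spots well above background served as the filter.

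Control spots were left out, as were 192 probes whose spots were all flagged as outliers on an array, a handling of flags settled after the files were read. Spots of 1 probe were averaged and each array's 75th percentile of log2 intensity was subtracted. Probes well above background on both arrays of at least 1 group were kept (37649 of 56413), and the brightest kept probe stood for each gene. Accessions were matched to symbols through RefSeq names (GRCm38.p6), which named 58.3% of probes. The headers name another build, so no coordinates come from them.

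A model with a mean for each group was fitted over the 8 arrays in limma 3.58.1 (R 4.3.3), two-sided, with Benjamini-Hochberg adjustment over 29584 genes and a threshold of 0.05. The fit was tested on simulated data. Named genes were the members, up to 3 called genes of each list and comparison by smallest p, and the 3 genes most like Msln and Wt1. Of the genes so eligible, some are not named. Krt7, Krt8, Krt18, Krt19, Trp63, Dsc3, Col17a1, Upk3bl and the skeletal muscle list were chosen after their values were seen. The members and lists were chosen with earlier results of these data known. Alternatives were normexp with quantile normalization (on median intensity, as the files hold no mean signal), quantile normalization, the authors' table, other filters, all kept probes, only the groups compared, a replicate block and leaving out each array. A slide block could not be fitted with 1 slide.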

Additional observations from a re-analysis of the deposited data

Results flagged for a closer look

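The interaction of Msln stood out because the diet effect was tested to differ between feeding times, at −2.72 (log2; limma adjusted p = 5.37e-05). Msln was higher on high-fat diet at 12 weeks, by 0.52, and lower at 24 weeks, by a log2 change of −2.20. A larger interaction in the same direction was found in 221 of 29584 genes (0.747%). The interaction was called for 29.9% of all genes, so a diet effect that differs between feeding times was common on these arrays. Slide row and mouse age separate the same arrays as feeding time, and they cannot be told apart from it.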

How the results depend on the processing

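Msln kept its call, or lack of one, in all alternatives run, with the direction unchanged in the 4 comparisons called; its change for HF24 minus C24 ran from −2.28 to −1.33. Of 158 recomputed values of Msln and Wt1, 151 kept their side of the threshold, 4 lost the call and 3 gained it. Called values all kept their direction, but some values that were never called changed sign. Msln in C24 minus C12, for example, ran from −0.03 to 0.04. The number of members called moved in these cases. Without the filter on dim probes it was 3 for HF12 minus C12, 3 for HF24 minus C24, 3 for C24 minus C12 and 5 for HF24 minus HF12, the added genes being below background. With only the groups compared it was 1 for HF24 minus C24. With genes detected on all arrays it was 2 for the interaction, with fewer genes tested. Leaving out each array in turn gave 1 to 2 for HF24 minus C24, 1 to 2 for HF24 minus HF12 and 1 to 2 for the interaction. Calls over all genes for HF12 minus C12 fell from 9167 to 5398 without HF12 replicate 1, 5861 without HF12 replicate 2 and 5966 without C12 replicate 1.

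For the genes of the lists and those most like Msln and Wt1, 5030 values kept their side of the threshold, and their direction where called. A further 183 lost and 30 gained a call, and 5 reversed. Averaging all kept probes gave −0.12 for Cd200 and 0.0504 for Shisal1 in C24 minus C12. Normexp gave 0.0247 for Cidec in HF24 minus C24, and 2.21 for Adipoq and 0.17 for Cfd in the interaction. The cause was not tested. With the replicate number as a block, the number of members called was unchanged, and HF24 minus C24 had an adjusted p of 0.000433 for Msln and 0.0172 for Wt1. Correlations of the replicate deviations between groups ran from −0.08 to 0.17. They cannot decide whether equal numbers share an animal, culture or day, which the labels do not give. With 2 arrays per group, precision is limited by their number, and 5 members lie below background.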
